A study of Mus musculus with 3 samples.

Results

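Nonproductive T cell receptor (TCR) alpha contigs are assembled alpha transcripts that do not read through as a complete receptor chain. They were taken from the deposited contig table as every contig of chain TRA whose productivity entry was other than True, and 917 of 16546 alpha contigs (5.54%, 95% exact interval 5.20 to 5.90) met this rule, out of 21598 TCR contigs of all chains. All 917 were entered as False. They lay in 873 of the 12703 barcodes with an alpha contig (6.87%, 6.44 to 7.33). Of these barcodes 830 held 1 nonproductive contig, 42 held 2 and 1 held 3.

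The cells were thymocytes pooled from 8 female mice aged 7 to 12 weeks, of the strain C56Bl/6- (as spelled in the labels) that combines the alleles Tcli{beta}, TCR{alpha}+/- and Foxp3-GFP. All groups thus shared the TCliβ transgenic beta chain, 1 intact TCR alpha allele, the Foxp3-GFP reporter and a sort gate on surface Vα2, the protein product of the TRAV14 family. How the other alpha allele was disrupted is not given in the sources used here. Sorting separated 6 populations, namely CD4+CD8+ cells (DP), CD4 single-positive cells (CD4 SP), CD25+ and Foxp3lo Treg progenitors (TRP), and regulatory T cells without or with CD73 (CD73- Treg, CD73+ Treg). All but DP came from thymus depleted of CD8+ cells. Each population had its own hashtag, and all were run together as 1 gene expression, 1 hashtag and 1 TCR alpha-enriched library made with 10x 5' v2 chemistry. Since there was 1 pool, no value below has a replicate and no difference was tested between samples. Intervals are exact Clopper-Pearson 95% intervals, cover counting error only, and treat contigs and cells of 1 clone as independent. The rows of the expression matrix carry no gene names as used here, so the sorted populations were not checked against their markers.

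A TCR alpha chain is made by joining 1 of many variable (V, TRAV) segments to 1 of many joining (J, TRAJ) segments, with bases lost and added at the junction, so that many joins fall out of frame or contain a stop codon. The recombinase cuts at recombination signal sequences, a heptamer and a nonamer held apart by a spacer, that flank each segment. Because alpha V-J joining deletes only the DNA between the segments, a locus can rearrange again, each time with a V further upstream and a J closer to the constant gene TRAC. An allele that has not made a working chain can still be transcribed, and the complementarity-determining region 3 (CDR3) of its transcript shows the failed junction.

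The listed CDR3 sequences show what a nonproductive junction looks like, and the following 8 contigs are shown because their CDR3 starts out of the V reading frame. They are the highest by UMIs (unique molecular identifiers, counts of captured transcripts) among chains with a V outside the TRAV14 family, 1 per V family. Capitals mark the conserved V cysteine codon where it is covered and the last codon of the listed CDR3, which is the J phenylalanine codon.
TRAV12N-1 to TRAJ58: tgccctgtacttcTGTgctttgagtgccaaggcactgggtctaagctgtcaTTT
TRAV19 to TRAJ57: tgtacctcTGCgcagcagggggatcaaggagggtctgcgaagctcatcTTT
TRAV6-6 to TRAJ6: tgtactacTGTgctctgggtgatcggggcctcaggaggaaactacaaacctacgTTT
TRAV7-3 to TRAJ34: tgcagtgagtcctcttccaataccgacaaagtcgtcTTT
TRAV16D-DV11 to TRAJ37: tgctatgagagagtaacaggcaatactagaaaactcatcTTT
TRAV21-DV12 to TRAJ40: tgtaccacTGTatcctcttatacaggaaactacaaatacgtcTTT
TRAV4N-4 to TRAJ57: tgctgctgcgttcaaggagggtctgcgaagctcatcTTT
TRAV10N to TRAJ12: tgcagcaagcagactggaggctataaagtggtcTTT
In the first the listed CDR3 starts 13 bases before the V cysteine codon, in TRAV19, TRAV6-6 and TRAV21-DV12 it starts 8 bases before, and in the other 4 it starts 2 bases after the first base of that codon. None of these offsets is a multiple of the codon length, so the J end is in frame with a start that the V is not. The first contig differs from germline TRAV12N-1 on both sides of the cysteine codon, so its V name is uncertain.

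A different set is shown because the V is followed by a recombination heptamer motif and not by a J. These contigs have a TRAV and a listed CDR3 but no TRAJ, and they recur in several barcodes. Capitals mark the heptamer motif CACAGTG and, where the listed sequence reaches it, the 9 bases that follow a spacer of 23 bases.
TRAV3-3, 7 barcodes: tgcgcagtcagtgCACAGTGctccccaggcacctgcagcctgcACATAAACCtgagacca
TRAV9N-4, 5 barcodes: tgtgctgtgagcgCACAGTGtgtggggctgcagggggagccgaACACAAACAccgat
TRAV6N-7, 4 barcodes: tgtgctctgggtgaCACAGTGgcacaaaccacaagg
TRAV7D-5, 3 barcodes: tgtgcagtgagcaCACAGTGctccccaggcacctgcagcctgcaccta
The genes are annotated as TR_V_gene on the plus strand of chromosome 14 in GENCODE M21 (build GRCm38), TRAV3-3 at chr14:53665929-53666506 and TRAV7D-5 at chr14:52835858-52836387, and they lie upstream of TRAC at chr14:54220521-54224206. The bases before the heptamer equal the germline end of the named V in TRAV3-3, TRAV6N-7 and TRAV7D-5. In the contigs named TRAV9N-4 they differ from that gene and equal the end of TRAV9-4, so the name is uncertain. The genome beyond the V segments was not analysed here.

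The 917 contigs fell into 5 kinds by the segments they hold. The largest kind, 374 contigs, had a V and a J over the full length with no CDR3 listed. In 358 more a CDR3 was listed between V and J. A further 104 had a J and no V, 59 had a V and no J, and 22 held partial V and J stretches. The first 2 kinds are the 732 contigs entered as full-length (79.8%). Every productive contig has a V, a J and a CDR3 by definition, so the kinds themselves are not a difference from them. None of the 135 TRAV and TRAJ segments named in alpha contigs, all of which were found in GENCODE M21, was annotated as a pseudogene.

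In the cells of the expression matrix, full-length nonproductive contigs were carried by fewer captured transcripts than productive ones, with a median of 11 UMIs (quartiles 5 to 18) against 17 (12 to 25). Over all barcodes, in and outside the matrix, the medians were 15.5 UMIs and 16 in the 15629 productive alpha contigs, and 14 (quartiles 6 to 26) over all nonproductive contigs against 16 (9 to 26). Reads were fewer, at a median of 276 per contig against 702, which gave 19.8 reads per UMI against 45.9. Nonproductive contigs were also shorter, with a median of 523 bases against 572, and TRAC was assembled in 85.6% (83.2 to 87.8) against 99.8%. At the low end 135 of the 917 (14.7%) rested on 1 UMI, against 1.64% of productive contigs. At the high end 13 (1.42%, 0.757 to 2.41) had 100 or more UMIs, against 0.473% (0.372 to 0.594). The highest, a TRAV7-5 to TRAJ52 contig with 1771 UMIs, lay outside the expression matrix, and the highest productive contig had 562.

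**Figure D1:**
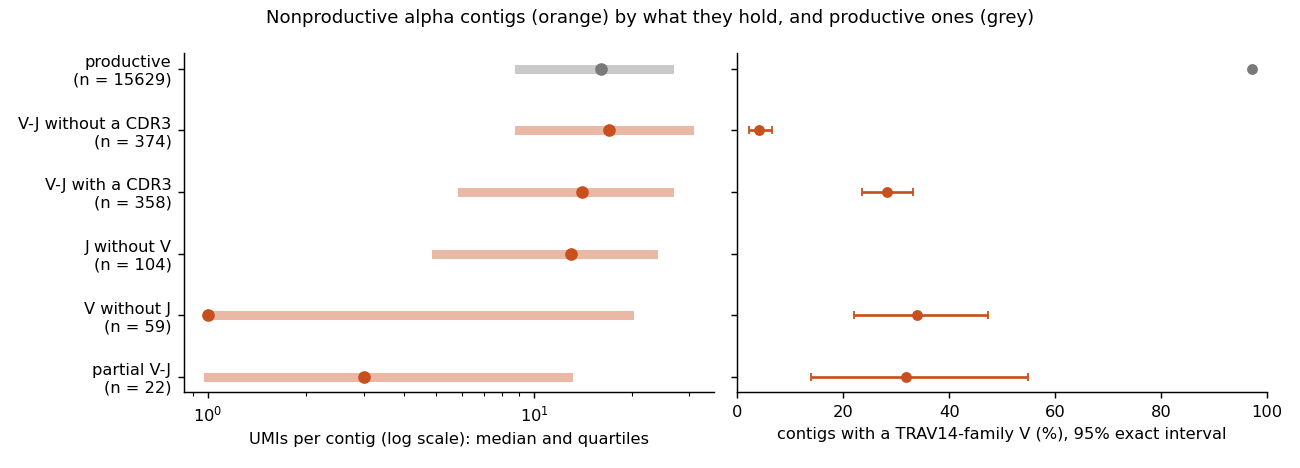
UMIs per contig (left, log scale, point for the median and bar for the quartiles) and the share with a TRAV14-family V (right, 95% exact interval), for productive contigs in grey and each kind of nonproductive contig in orange. Median UMIs lie between 13 and 17 in the full-length V-J and J-only kinds, at 3 in partial V-J and at 1 in V without J, while TRAV14 is in 97.2% of productive contigs and 4.01% of V-J contigs without a CDR3.

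Nearly all nonproductive contigs shared their barcode with a productive alpha chain. Of the 873 barcodes 849 held one (97.3%, 95.9 to 98.2). So did 12679 of all 12703 barcodes with an alpha contig, since those without a nonproductive contig hold a productive one by definition. The high share is therefore not particular to nonproductive contigs. By contig, 26 lay in barcodes with no productive alpha chain, 554 in barcodes with 1 and 337 in barcodes with 2. Barcodes with 2 productive chains held a nonproductive one in 10.6% (9.52 to 11.8), and those with 1 in 5.51% (5.06 to 5.98). Barcodes with 2 productive chains can hold more than 1 cell. So can barcodes with 1 productive and 1 nonproductive chain, and the number of cells behind a barcode was not tested. Pairs within a barcode are therefore not shown to be pairs within 1 cell. The TRAV14 and TRAJ40 shares are also given below for barcodes with 1, and the pairs within a barcode use only those, while the other values are over all barcodes.

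Barcodes with a nonproductive contig were less often among the 12208 cells of the expression matrix. Of 536 barcodes with 1 productive and at least 1 nonproductive chain, 52.1% (47.7 to 56.4) were in the matrix, against 72.9% (71.99 to 73.8) of 9193 barcodes with 1 productive chain alone. With 2 productive chains the shares were 7.99% (5.24 to 11.6) and 11.6% (10.4 to 12.8), with overlapping intervals. In all, 323 nonproductive contigs (35.2%) and 48.9% of productive contigs lay in matrix cells. The nonproductive share of alpha contigs was 4.06% (3.63 to 4.51) within the matrix and 6.92% (6.39 to 7.48) outside it. A beta contig was present in 46.3% (42.9 to 49.6) of nonproductive barcodes and 32.6% (31.8 to 33.5) of the others. How the authors chose matrix cells is not given in the sources used here.

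Within a barcode a full-length nonproductive contig usually had more UMIs than the productive one. In matrix cells with 1 productive contig, a full-length nonproductive one had more UMIs in 136 of 205 pairs (66.3%, 59.4 to 72.8), with medians of 11 and 7. The productive chain of 6703 matrix cells without a nonproductive contig had a median of 18 UMIs. Outside the matrix the nonproductive contig was ahead in 179 of 223 pairs (80.3%, 74.4 to 85.3), with medians of 19 and 8. Contigs without a CDR3 were ahead in 78.8% of all pairs (171 of 217). Contigs with a CDR3 were ahead in 83.8% with a TRAV14-family V (31 of 37, 68.0 to 93.8) and in 64.9% with another V (113 of 174). Pairs in which both contigs carry the same CDR3, described below, were not left out. Contigs with a J alone were ahead in 61.97% (44 of 71, 49.7 to 73.2). The last interval includes equality. Partial V-J contigs were ahead in 6 of 14 pairs (42.9%, 17.7 to 71.1), with medians of 2.5 and 9.5 UMIs.

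The V genes differed sharply between the classes, in a direction that the Vα2 gate sets for the productive chain. TRAV14-family genes were in 143 of the 813 nonproductive contigs with a V (17.6%, 15.0 to 20.4) and in 97.2% (97.0 to 97.5) of productive contigs. In full-length contigs of matrix cells the share was 5.37% (2.89 to 9.01). By population there were 3 such contigs of 67 in DP, 3 of 57 in CD4 SP and 4 of 58 among CD25+ TRP. Foxp3lo TRP had 2 of 26, CD73+ Treg 1 of 30 and CD73- Treg 0 of 4, for which the exact upper limit is 60.2%. The intervals of the 6 populations overlapped. Over full-length contigs the share was 10.0% (7.37 to 13.3) in barcodes with 1 productive chain and 23.2% (18.4 to 28.6) in barcodes with 2. By kind it was 4.01% (2.26 to 6.53) in V-J contigs without a CDR3 and 28.2% (23.6 to 33.2) in those with one.

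Of 89 TRAV segments, 51 had a higher share in nonproductive contigs with 95% intervals apart (57.3%), and 8 had a lower one (8.99%). The Vα2 gate sets the productive shares (97.2% TRAV14), so these counts are not a result apart from the family share above. Those 8 were all TRAV14 copies, out of 9 in the family. The other copy, TRAV14D-1, was called higher, on 2 nonproductive and 0 productive contigs. TRAV14D-3-DV8 (chr14:53078452-53079045), the copy most used by productive chains at 25.3%, made up 2.46% of nonproductive ones (20 contigs). TRAV14-1 made up 3.08% against 18.1%, TRAV14-2 1.48% against 10.5%, TRAV14N-3 1.85% against 10.2%, and TRAV14N-2 0.861% against 8.82%. TRAV14N-1 (chr14:53166626-53167178) was lower too, at 4.92% against 15.0%, and still was the most frequent single V among nonproductive contigs (40). The TRAV14 copies are close relatives, so the copy assigned to a contig is uncertain and the family total is the safer value.

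The other frequent V genes each made up a few percent of nonproductive contigs and well under 1% of productive ones. TRAV12D-2 was in 38 nonproductive contigs (4.67%, against 0.0704% of productive ones), and TRAV4N-4 and TRAV6N-7 in 35 each (4.31%). TRAV13-1 was in 34, TRAV3-3 in 31, TRAV12-3 in 30 and TRAV7D-5 in 26. Among the 616 full-length nonproductive contigs with a V outside TRAV14, the leading families were TRAV13 (19.8%), TRAV12 (12.99%), TRAV6 (11.7%), TRAV7 (11.5%) and TRAV4 (10.7%). The 434 productive contigs with such a V led with the same 5, at 18.9%, 16.1%, 12.7%, 15.0% and 9.45%. The intervals of these 5 families overlapped between the classes.

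Nonproductive contigs used J segments nearer to the V genes, a shift seen in chains with a V outside TRAV14. TRAJ numbers fall from the V side of the locus toward TRAC, and the median TRAJ number was 31 (quartiles 18 to 42) in 858 nonproductive contigs with a J and 23 (13 to 33) in productive ones. Segments numbered 40 or higher made up 263 of the 858 (30.7%, 27.6 to 33.9) against 18.9% (18.3 to 19.5). In full-length contigs the share was 33.2% (29.8 to 36.7), and in contigs with a J and no V it was 15.4% (9.06 to 23.8). Between chains with a V outside TRAV14, which removes the gated family from both sides, full-length nonproductive contigs stood at 35.4% (31.6 to 39.3) and productive ones at 23.96% (20.02 to 28.3). Within the TRAV14 family the shares were 21.6% (14.5 to 30.1) of 116 full-length nonproductive contigs and 18.7% (18.1 to 19.4) of productive ones, with overlapping intervals. Of these 116 contigs 101 had a CDR3, and in 64 of them it also occurred in some productive contig. The share was 18.8% (11.7 to 27.8) of the 101 and 6 of the 15 without a CDR3 (40%, 16.3 to 67.7). The family comparison therefore cannot show whether failed TRAV14 junctions have the shift. In barcodes with 1 productive chain 33.6% (29.2 to 38.3) of full-length nonproductive contigs had TRAJ40 or higher.

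Of 46 TRAJ segments, 11 were higher in nonproductive contigs with intervals apart (23.9%) and 5 were lower (10.9%). The 11 higher ones were all numbered 32 or above and the 5 lower ones 23 or below. TRAJ37 (chr14:54181518-54181577) was in 34 contigs, 3.96% (2.76 to 5.49) against 1.73% (1.54 to 1.95), and TRAJ42 in 34, 3.96% against 1.78%. TRAJ49 was in 28, 3.26% against 1.21%, and TRAJ32 in 38, 4.43% against 2.85%. The largest deficit was at TRAJ13 (chr14:54205741-54205797), with 16 contigs, 1.86% (1.07 to 3.01) against 7.68% (7.27 to 8.11). A single productive CDR3 on TRAJ13 occupied 306 barcodes, so part of that productive share is 1 junction. TRAJ7 stood at 1.75% against 4.47%, TRAJ4 at 1.52% against 4.22%, TRAJ23 at 4.08% against 6.76%, and TRAJ22 at 2.68% against 5.01%. The most frequent segment, TRAJ26 (51 contigs), had nearly equal shares of 5.94% and 5.88%. TRAJ31 (43 contigs), TRAJ12 (35) and TRAJ43 (28) also had overlapping intervals. TRAJ41 was in 4 nonproductive contigs, all without a V, and in 0 of 15629 productive ones, for which the exact upper limit is 0.0236%.

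**Figure D2:**
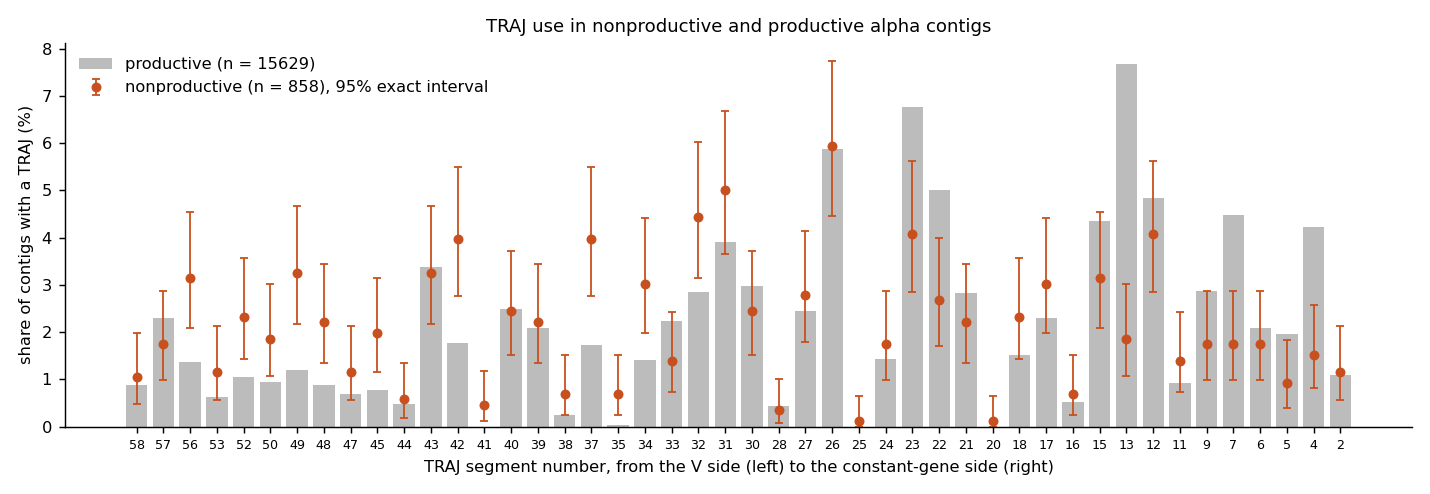
Share of contigs on each TRAJ segment, ordered from the V side on the left to the constant-gene side on the right, with productive contigs as grey bars and nonproductive contigs as orange points with 95% exact intervals. Orange points stand above the bars for most segments on the left, such as TRAJ49 and TRAJ42, and below them at TRAJ23, TRAJ13, TRAJ7 and TRAJ4.

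The shift toward V-side J segments was apart from counting error in 3 of the 6 populations. In DP, 34 of 67 full-length nonproductive contigs had TRAJ40 or higher (50.7%, 38.2 to 63.2), against 30.6% (28.1 to 33.1) of 1350 productive ones. In CD25+ TRP the shares were 34.5% (22.5 to 48.1) and 16.0% (14.4 to 17.7), and in CD73+ Treg 46.7% (28.3 to 65.7) and 17.3% (15.2 to 19.6). The intervals overlapped in CD4 SP, at 28.1% (17.0 to 41.5) and 18.2% (16.6 to 19.97), and in Foxp3lo TRP, at 19.2% (6.55 to 39.4) and 16.1% (13.8 to 18.7). CD73- Treg had 2 of 4, against 10.6% (7.05 to 15.2), with an interval too wide to read. The nonproductive intervals of the 6 populations overlapped one another. The classes were not matched for V family here. In matrix cells TRAV14 was in 5.37% of full-length nonproductive contigs and 97.4% of productive ones.

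**Figure D3:**
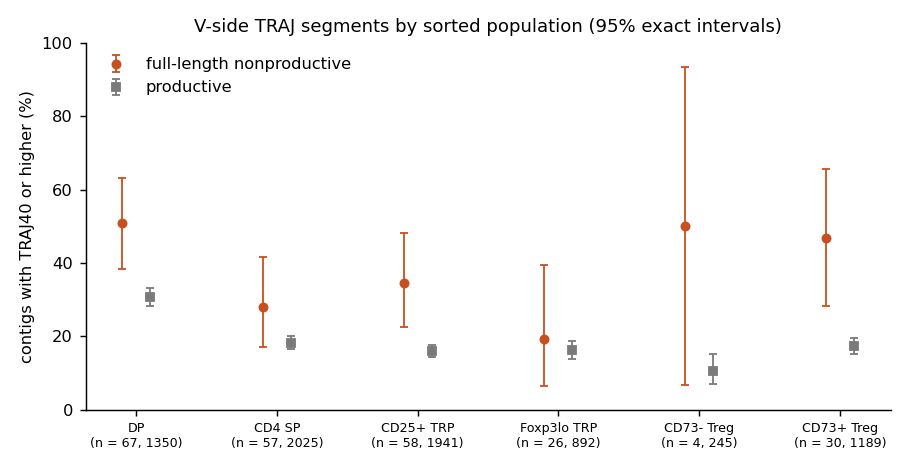
Share of contigs with TRAJ40 or higher in each sorted population, for full-length nonproductive contigs (orange circles) and productive contigs (grey squares), with 95% exact intervals and the number of contigs of each under the name. The orange point is above the grey one in all 6 populations, and the intervals are apart in DP, CD25+ TRP and CD73+ Treg. V families are not matched between the classes.

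The J position went with the V position. Among full-length nonproductive contigs with a V outside TRAV14, 40 of 52 whose V lay within 500 kb of TRAC had TRAJ40 or higher (76.9%, 63.2 to 87.5), with a median TRAJ number of 48. For V genes 500 to 800 kb away the share was 36.04% (29.7 to 42.7), for 800 to 1200 kb 34.4% (27.7 to 41.5), and for 1200 to 2000 kb 21.1% (14.8 to 28.6). Spearman's rho between distance and TRAJ number was -0.23 over the 616 contigs and -0.46 over the 434 productive contigs outside TRAV14. These correlations describe contigs that come from 1 pool and 1 library.

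Within a barcode the J of a full-length nonproductive contig mostly lay on the V side of the productive J. Each full-length nonproductive contig was paired with the productive one in barcodes with 1 productive chain, which gave 428 pairs in 415 barcodes. Of these pairs 305 were on the V side, 101 on the TRAC side and 22 on the same segment, so 75.1% (70.6 to 79.3) of the 406 that differed were on the V side. The median difference was 9 TRAJ numbers. In these pairs the median TRAJ number was 32 in nonproductive and 22 in productive contigs, so the share includes the shift between the classes. It was not compared with contigs paired between barcodes. In matrix cells the share was 83.1% (77.1 to 88.1) and outside the matrix 67.8% (61.01 to 74.03), and these intervals did not overlap. CD73- Treg had 4 of 4 and CD73+ Treg 90.9% (20 of 22). CD4 SP stood at 84.3% (43 of 51), CD25+ TRP at 84.0% (42 of 50), Foxp3lo TRP at 78.9% (15 of 19) and DP at 77.6% (38 of 49). These intervals overlapped.

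Contigs with a J and no V went the other way. Of 71 such pairs 13 lay on the V side of the productive J (18.3%, 10.1 to 29.3) and 58 on the TRAC side, at a median distance of 6.91 kb. Within 5 kb lay 17 of the 58, and 3 were the very next segment. TRAJ26 led this kind with 19 of 104 contigs (18.3%, 11.4 to 27.1), against 5.88% of productive contigs and 4.37% of full-length nonproductive ones. TRAJ17 (10 contigs), TRAJ24 (8), TRAJ18 (7) and TRAJ12 (6) followed. Their median was 13 UMIs, and 51 of the 104 were in matrix cells.

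**Figure D4:**
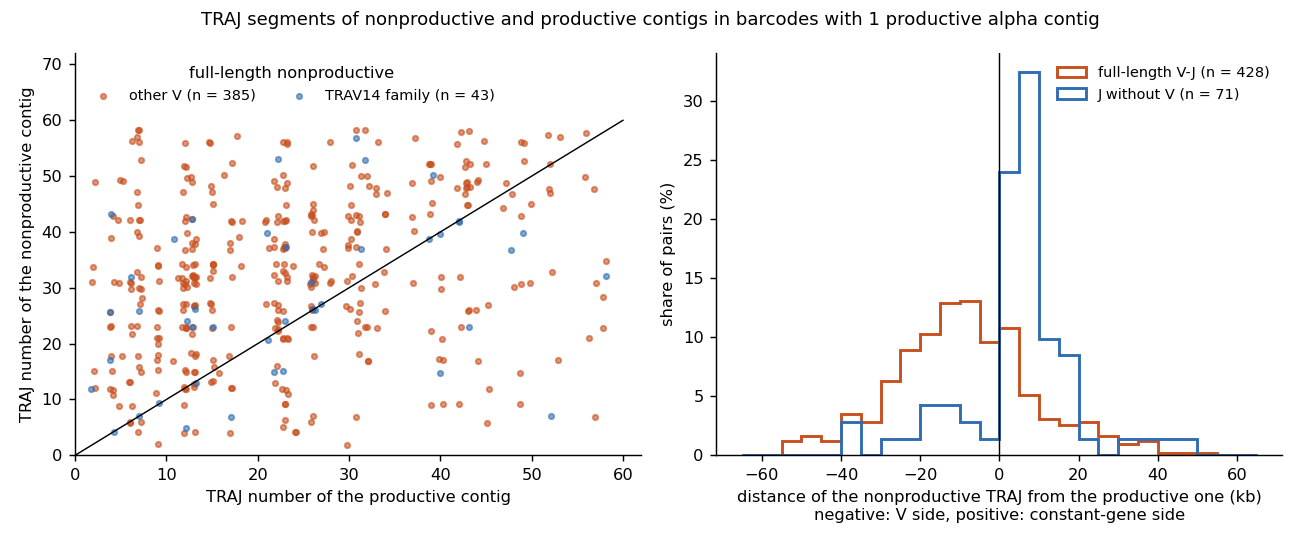
TRAJ number of the productive contig against that of the full-length nonproductive contig of the same barcode (left, 428 pairs, slightly jittered, line at equality), and the distance between the J segments in kb for full-length contigs and for contigs with a J and no V (right, share of pairs in 5 kb bins, negative toward the V genes). Most points on the left lie above the line, and the blue outline on the right peaks just on the constant-gene side, where 58 of 71 pairs lie.

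The 358 listed CDR3 sequences between V and J separated by V family in how they read. In 95 of the 101 TRAV14 contigs (94.1%, 87.5 to 97.8) the CDR3 began at the V cysteine and ended at the J end that productive chains on the same J share, as in 99.0% of productive contigs. Only 48 of 257 contigs with another V did so (18.7%, 14.1 to 23.99). In 120 of the 257 (46.7%, 40.5 to 53.0) the start was in another frame, as in the 8 sequences shown first, and in 54 (21.01%, 16.2 to 26.5) the start was the cysteine but the last bases were not the usual J end. Over all 358, 61 starts lay 2 bases after the first base of the cysteine codon, 35 lay 13 bases before it and 32 lay 8 bases before it. An example of a cysteine start with other last bases is given by TRAV12-3 joined to TRAJ13, with 75 UMIs and the cysteine codon in capitals. The usual TRAJ13 end lies inside this listed sequence, out of frame with the cysteine, and more bases follow it.
TRAV12-3 to TRAJ13: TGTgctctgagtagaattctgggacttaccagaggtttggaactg

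The TRAV14 contigs with a CDR3 were shorter and less often in matrix cells than those with another V. Their CDR3 nucleotide sequence also occurred in some productive contig in 64 of 101 cases. For other V genes this was so in 5 of 257, which cannot be set against it because only 434 productive contigs have such a V. The median length of the TRAV14 contigs was 478 bases, against 525 for other V genes with a CDR3 and 573 for productive TRAV14 contigs. Only 9 of the 101 were in matrix cells (8.91%), against 37.7% (97 of 257) for other V genes, and 57 lay in barcodes with 2 productive chains. The part of contig length in these differences was not tested.

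In 26 barcodes a nonproductive contig carried the same CDR3 nucleotide sequence as a productive contig of the same barcode, on the same TRAJ in 25. The TRAV assigned was the same in only 2, but a TRAV14-family gene was assigned to 23 of the nonproductive and 25 of the productive contigs. The copy assigned within that family is uncertain, so unlike TRAV names here need not be unlike V genes. The nonproductive contig was the shorter in 21, with medians of 478 and 597.5 bases, and had more UMIs in 21, with medians of 18.5 and 6. Only 5 were in matrix cells. These 26 were also the only nonproductive contigs to which the contig table gives a clonotype consensus. The example with the most UMIs had 110 on a TRAV14D-2 contig of 478 bases and 7 on a TRAV14-1 contig of 578 bases in the same barcode.
TRAJ15, shared CDR3: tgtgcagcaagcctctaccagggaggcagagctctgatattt

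The 59 contigs with a V and no J were of unlike sorts. TRAC was present in 22, which had a median of 24 UMIs and a TRAV14 gene in 18. It was absent from 37, which had a median of 1 UMI (29 of them at 1) and a TRAV14 gene in 2. Of the 26 with a listed CDR3, all without TRAC, 25 held the heptamer CACAGTG in it (96.2%, 80.4 to 99.9), searched on the strand as listed. The motif was in 0 of the 358 listed CDR3 of V-J contigs, for which the exact upper limit is 1.03%, and in 5 of 15629 productive CDR3 (0.0320%). In 18 of the 26 the bases before the heptamer were exactly the end of the germline V segment in GENCODE M21. The listed sequence reached 9 bases past a 23-base spacer in 14 of the 26, as in the TRAV3-3 and TRAV9N-4 sequences shown above. These matches describe letters in the listed sequences. With 21 of the 26 contigs at 1 UMI their number is small against the library.

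The following CDR3 are from the contig with the most UMIs in each of the 4 populations that hold the most nonproductive contigs. They illustrate the reading classes and not their frequency, since 3 of the 4 are on TRAV14. Capitals mark the V cysteine codon where it opens the CDR3 and the J end codon where it closes it.
DP, TRAV14N-3 to TRAJ40, 47 UMIs: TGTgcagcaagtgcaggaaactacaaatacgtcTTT
CD4 SP, TRAV3-3 to TRAJ5, 31 UMIs: TGCgcagtcagtgcatcgggacacagg
CD25+ TRP, TRAV14N-2 to TRAJ53, 47 UMIs: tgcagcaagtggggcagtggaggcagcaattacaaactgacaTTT
CD73+ Treg, TRAV14-2 to TRAJ7, 46 UMIs: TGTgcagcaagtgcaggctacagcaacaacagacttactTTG
The DP and CD73+ Treg examples have both ends in place, the CD4 SP one opens at the cysteine and does not close at the J end, and the CD25+ TRP one starts 2 bases late. The DP CDR3 was also on a productive TRAV14-1 contig of the same barcode, with 15 UMIs, so it is not an example of a failed junction.

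Few nonproductive junctions were found in more than 1 barcode. Of 379 different combinations of V, J and CDR3 nucleotide sequence 6 were found in 2 or more barcodes, and 5 of these were V sequences without a J. Among 356 full-length combinations with a CDR3, from 358 contigs, 1 recurred. Of 9598 productive combinations 1648 did, but these came from 15629 contigs, and recurrence depends on the number of contigs, so the counts cannot be compared. It was held by 2 barcodes outside the matrix, with 16 and 18 UMIs, and by no productive contig.
TRAV6N-7 to TRAJ56, 2 barcodes: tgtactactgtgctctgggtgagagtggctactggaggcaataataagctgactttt
By V and J gene alone, 127 of 562 full-length pairs were in 2 or more barcodes, and the most frequent, TRAV12D-2 with TRAJ31 and TRAV14N-1 with TRAJ26, in 5. Barcodes that shared a productive CDR3 mostly held different nonproductive V and J genes. Of 206 pairs of barcodes with the same productive CDR3 and a full-length nonproductive contig each, 1 pair had the same nonproductive V and J. These pairs are not independent, since a CDR3 held by many barcodes gives many pairs. The share over pairs of barcodes with unlike productive CDR3 was not computed, so the count cannot be read as particular to barcodes that share a CDR3. The productive CDR3 that most of them went with, the TRAJ13 sequence of 306 barcodes, is shown because 15 of those barcodes held a full-length nonproductive contig and these used 14 different V and J pairs.
TRAJ13, productive: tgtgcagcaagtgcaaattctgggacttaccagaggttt

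In the 24 barcodes with a nonproductive contig and no productive alpha chain, 15 were matrix cells, and 14 of these 15 were DP. The other was a CD73+ Treg with a TRAV6-6 to TRAJ39 contig of 14 UMIs. In the DP cells 3 of the 14 contigs were on TRAV14, and UMIs ran from 3 to 40. All cells were sorted on surface Vα2, and a productive alpha chain was assembled in 43.3% of DP cells, the lowest share of the 6 populations. The part of detection in the absence of a productive chain from these 15 cells was not tested.

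Cells with a nonproductive contig were found in all 6 populations at 1 to 3%. DP had 82 such cells of 3021 (2.71%, 2.16 to 3.36) and CD4 SP 79 of 2436 (3.24%, 2.58 to 4.03). Among the progenitors, CD25+ TRP had 76 of 2503 (3.04%, 2.40 to 3.79) and Foxp3lo TRP 33 of 1393 (2.37%, 1.64 to 3.31). Among the regulatory T cells, 44 of 2401 with CD73 (1.83%, 1.33 to 2.45) and 5 of 454 without it (1.10%, 0.359 to 2.55) held one. The CD4 SP interval was apart from both of these, and no other pair of populations was. With full-length contigs only, CD4 SP (2.34%, 1.78 to 3.02) overlapped both CD73+ Treg (1.25%, 0.845 to 1.78) and CD73- Treg (0.881%, 0.241 to 2.24), and with at least 2 UMIs per contig it overlapped CD73+ Treg. Assembly of a productive chain also differed between the populations, from 43.3% of cells in DP, 46.8% in CD73+ Treg and 51.5% in CD73- Treg to 79.5% in CD4 SP. Among cells with a productive alpha chain, the share with a nonproductive one was highest in DP at 5.20% (4.06 to 6.54). CD4 SP and CD25+ TRP both stood at 4.08%, Foxp3lo TRP at 3.89%, CD73+ Treg at 3.83% and CD73- Treg at 2.14%, and all intervals overlapped. The pool holds no population that should lack alpha transcripts, so a background from free RNA could not be read.

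The share rose with the RNA captured per cell in some populations. With the cells of a population split into 4 equal groups from low to high UMIs in the expression library, it was 0.661%, 1.46%, 2.52% and 6.23% in DP, and 0.333%, 0.833%, 2.50% and 3.67% in CD73+ Treg. In CD25+ TRP it was 3.51%, 2.88%, 2.24% and 3.51%, with overlapping intervals. DP cells with a nonproductive contig had a median of 1983.5 UMIs, against 1563 in those with a productive contig only. The part of captured RNA in the differences between populations was not tested.

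Across the deposited clusters, which carry numbers only, the share ran from 4.62% in cluster 6 (40 of 866, 3.32 to 6.24) and 4.29% in cluster 1 (63 of 1468, 3.31 to 5.46) to 1.12% in cluster 3 (15 of 1340, 0.628 to 1.84) and 0.649% in cluster 8 (5 of 770, 0.211 to 1.51). Cluster 13 had 0 of 83, with an exact upper limit of 4.35%. Clusters 6 and 8 are mostly DP cells and differed in median UMIs, at 1600.5 and 1087, and in cells with a productive chain, at 71.9% and 27.9%. Of cells with a productive chain, 5.94% in cluster 6 and 1.86% in cluster 8 held a nonproductive one, and those intervals overlapped. Within CD4 SP the share was 4.93% in cluster 1 (46 of 933, 3.63 to 6.52) and 2.42% in cluster 2 (22 of 910, 1.52 to 3.64). These intervals overlapped slightly. Of cells with a productive chain it was 6.21% (4.58 to 8.19) and 2.93% (1.84 to 4.40), with intervals apart, and with full-length contigs only 4.18% (2.86 to 5.89) and 2.13% (1.22 to 3.43), with overlapping intervals. The CD4 SP cells of these clusters had median UMIs of 2925 and 2652, and this pair was singled out after its values were seen.

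**Figure D5:**
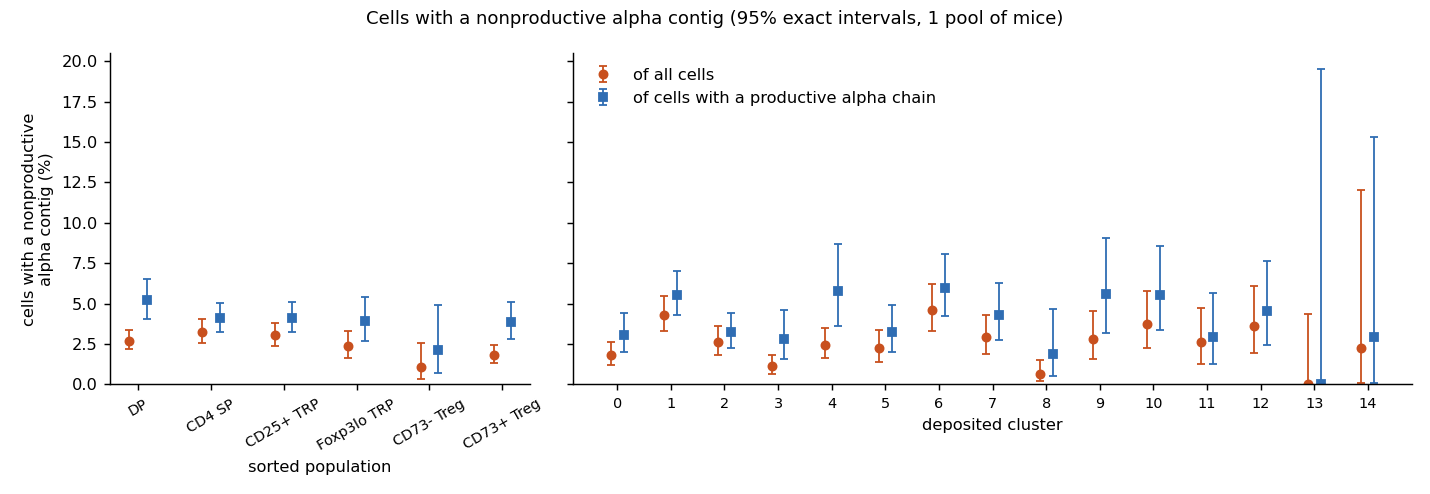
Share of cells with a nonproductive alpha contig in each sorted population (left) and deposited cluster (right), of all cells (orange circles) and of cells with a productive alpha chain (blue squares), with 95% exact intervals. Of all cells the populations lie between 1.10% and 3.24%, and cluster 8 at 0.649% lies below clusters 6 and 1.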

How the data were processed

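The TCR alpha-enriched library was deposited as a filtered contig table in which the authors give read counts and UMI counts, segments, CDR3 and productivity per contig. UMI counts of 12208 cells came from the deposited expression matrix, and their population and cluster from another deposited table. Tools and builds named in the submitters' processing notes, with no role given, are Seurat 3.1.1, Cell Ranger 3.1.0, GRCm38 and mm10. Handling of doublets is not given in the sources used here, and none were removed. Barcodes were joined by adding the suffix of the contig table, and 6982 of 6982 clonotypes matched. The contig table held 12771 barcodes, and 7379 of these were in the matrix. Alpha contigs held 340828 UMIs and 15895854 reads, of which the nonproductive ones held 20444 and 509752, so shares over few contigs or cells have wide intervals.

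Shares have exact (Clopper-Pearson) 95% intervals and differences of shares Newcombe intervals, from scipy 1.17.1 in Python 3.11.15 with pandas 2.3.3. No test between samples was possible. Segment coordinates and germline V ends came from GENCODE M21. The last 36 germline V bases were searched for the cysteine codon, and a CDR3 start was placed where at least 6 bases matched. The last 9 bases of the CDR3 were compared with the end most productive chains on that J share. Functions were tested on simulated contigs. Named segments are the 8 most frequent TRAV and TRAJ, and the 6 of each with the largest difference among those with intervals apart. The members, lists and rules were chosen with earlier results of these data known. The kinds of contig, the frame classes, the heptamer, the distances and the split by productive number were added after seeing the table.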

Additional observations from a re-analysis of the deposited data

Results flagged for a closer look

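Outside chain TRA, 18 contigs were entered as chain Multi and are used in no comparison above. They hold segments named for more than 1 TCR chain, mostly alpha and delta. They lay in 18 barcodes, 17 of which also held a productive alpha contig, and 6 were in matrix cells. A TRDV gene and a TRAJ were joined in 13, TRAC was present in 15, and 1 was entered as productive. Their median was 8.5 UMIs, and the highest, TRAV14N-2 with TRDJ1, had 112. No control sample shows the level of such contigs by chance assembly.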

How the results depend on the processing

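Limits are the single pool, intervals that cover counting error only, and 135 contigs at 1 UMI. No analysis paired by mouse or sample was possible because each library is 1 pool. No contig was entered as None, so that alternative gave no value. The nonproductive share of 5.54% moved to 4.84% with at least 2 UMIs per contig, 4.47% in full-length contigs and 4.06% in matrix cells, where the share of barcodes with a productive chain was 95.3% and the median 11 UMIs against 17 in productive contigs. The TRAV14 difference of -79.6 points was -91.1 in matrix cells, -83.8 in DP cells, -67.9 with each different V, J and CDR3 once (which leaves out contigs without a CDR3) and -85.9 in barcodes with 1 productive chain. The difference of 11.8 points in TRAJ40 or higher was 16.2 in DP cells and 18.2 with TRAJ30 or higher. The share of pairs with the nonproductive J on the V side, 66.2% over all kinds, was 75.1% in full-length contigs and was reversed at 18.3% in contigs with a J and no V. Recurrent junctions went from 6 to 1 in full-length contigs and to 133 by V and J gene alone. The other 37 alternatives to these and to the population and cluster differences, among them False only, which holds the same contigs, stayed within the interval of the value first given or near its count. Of 91 values for single populations and clusters, 31 left that interval, 23 upward, all with cells that have an alpha chain as the denominator, and 8 downward with fewer contigs counted. The restriction to 1 productive chain, to 1 nonproductive contig (65.9% on the V side), to V genes outside TRAV14 and to contigs with a J alone was chosen after seeing the data.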
